A study of Mus musculus with 32 samples.

Results

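Small nucleolar RNAs (snoRNAs) and small Cajal body RNAs (scaRNAs) were examined in livers of male C57Bl/6J mice whose parents had been fed a HF or a LF diet. The members were all rows of the expression table whose gene name begins with Snord, Snora or Scarna and a number, which gave 56 of the 21115 probe sets, namely 32 Snord, 22 Snora and 2 Scarna RNAs. The name alone decided membership, but the family was taken up because Snord57, Snord22 and Snord16a stood out in the comparison of parental diets at 28 weeks in earlier work on the same arrays. Values of that comparison, and of the difference between ages that contains it, are therefore given below as a description with no test.

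Both parents received the HF diet (45% of energy as fat) or the LF diet (9%, standard chow) from 6 weeks before mating until the end of lactation, after which every litter was switched to the HF diet at weaning. The groups are HF/HF offspring at 28 weeks (9 mice), LF/HF offspring at 28 weeks (9 mice), HF/HF offspring at 12 weeks (7 mice) and LF/HF offspring at 12 weeks (7 mice), with 1 array a mouse and 32 arrays in all. No group ate the LF diet after weaning, so both parental diets were compared on the same later diet, and prenatal exposure was not separated from exposure during lactation. Litters were not given in the labels used here, so p-values measure the spread between mice, which may include littermates.

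Most snoRNAs are cut out of introns of other genes, and each pairs with a stretch of target RNA to place a chemical mark. C/D box RNAs (Snord) guide methylation of ribose in ribosomal RNA together with the proteins Fbl, Nop56, Nop58 and Snu13. H/ACA box RNAs (Snora) guide the change of uridine to pseudouridine together with Dkc1, Gar1, Nhp2 and Nop10, and scaRNAs carry out the same chemistry on spliceosomal RNAs in Cajal bodies. A few members, such as Snora73a, Snora73b and the Snord14 RNAs, are known for a part in cutting the ribosomal RNA precursor, which the Snord14 RNAs play beside guiding methylation. The array measures hybridization to probes within each gene, so the mature RNA and the host intron that contains it cannot be told apart.

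All 56 members lay within another gene of the GRCm38.p6 RefSeq annotation. Of these, 22 lay in genes for ribosomal proteins, such as Rpl13a, which holds Snord32a, Snord33, Snord34 and Snord35a, and Rps3, which holds Snord15a and Snord15b. Another 12 lay only in long noncoding hosts, such as Snhg1 with Snord22, Snhg3 with Snora73a and Snora73b, and Snhg12 with Snora16a and Snora44. Annotated lengths were 45 to 148 bases in Snord RNAs (median 68) and 61 to 205 bases in Snora RNAs (median 125).

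Hosts of snoRNAs are known for a pyrimidine tract at the start of their transcripts, the mark of genes whose translation follows growth signals, and the starts of 7 hosts that carry results below are shown for that reason. Each line holds 30 bases before and 20 bases after the annotated start, from RefSeq (GRCm38.p6), 5′ to 3′ on the strand of the gene. Capitals mark an unbroken run of at least 5 letters C or T that begins between position -5 and position 5, counted from the start with the first transcribed base as 1.
Rpl13a (chr7:45128726-45128775, minus strand): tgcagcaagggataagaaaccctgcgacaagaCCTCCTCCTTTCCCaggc
Snhg1 (chr19:8723457-8723506, plus strand): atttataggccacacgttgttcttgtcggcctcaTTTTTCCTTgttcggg
Nop56 (chr2:130274382-130274431, plus strand): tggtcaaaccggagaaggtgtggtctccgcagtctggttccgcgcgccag
Gas5 (chr1:161035136-161035185, plus strand): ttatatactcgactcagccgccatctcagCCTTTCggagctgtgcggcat
Rack1 (chr11:48800330-48800379, plus strand): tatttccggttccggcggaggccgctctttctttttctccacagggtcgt
2410006H16Rik (chr11:62602847-62602896, plus strand): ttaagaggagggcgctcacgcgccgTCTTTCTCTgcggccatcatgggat
Gm36220 (chr11:106500885-106500934, plus strand): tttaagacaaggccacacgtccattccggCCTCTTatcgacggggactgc

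Such a run was present at the starts shown for Rpl13a, Snhg1, Gas5 (1 of its 2 annotated starts), 2410006H16Rik and Gm36220. Nop56, the host of Snord57, had none, and at Rack1 the run of C and T begins 1 base too early to be counted. Only this strand was searched. Of the 47 host names, 36 had a start in the table, and 14 of their 38 windows (36.8%) held a run by this definition, compared with 20.3% of all 32851 windows. A match describes the letters and says nothing of how the gene is regulated.

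Values are log2 of the RMA intensity, on which 1 unit is a doubling of signal, and they are compared between mice within a probe set. Intensity depends on the probes as well as on the RNA, so an order of probe sets is not an order of RNA amounts. Averaged over all mice, 47 members were at or above the median probe set (3.10) and 36 were above the upper quartile of all probe sets (5.62). Within groups the members varied more than most transcripts, with a median SD of 0.50 (range 0.16 to 0.88), compared with 0.22 over all probe sets, and 54 members were above that value. The C/D box probe sets of highest intensity were Snord104, Snord32a, Snord49b and Snord55, and the H/ACA box probe sets of highest intensity were Snora73b, Snora44, Snora73a and Snora16a. The 5 members of largest spread were Snord57, Snora70, Snora73b, Snora73a and Snora34.

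Hepatocyte markers were high in every mouse, with a mean over 10 markers of 12.3 to 12.5. Skeletal muscle markers, by contrast, averaged 2.22 to 2.69 in 29 mice but 8.78 in LF/HF mouse 1 at 12 weeks, 5.65 in LF/HF mouse 8 at 28 weeks and 4.25 in HF/HF mouse 3 at 12 weeks. For each contrast below, the counts of members past the study criterion or above 0 were also made without these 3 mice. Counts of spread, host genes, machinery genes and outlying mice were not. Mice are numbered within each group as in the sample titles.

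At 28 weeks, the members lay mostly higher in HF/HF offspring. The log2 fold change, HF/HF over LF/HF, was above 0 for 49 of 56 members, against 48.6% of all probe sets, with a median of 0.21 over the members and -0.004 over all probe sets. Among C/D box RNAs, 31 of 32 were higher, with a median of 0.27, and among H/ACA box RNAs 17 of 22 were higher, with a median of 0.14. The log2 fold change was 0.21 ± 0.16 in Scarna8 and -0.27 ± 0.27 in Scarna13 (SE). The other members below 0 were Snora75, Snora62, Snora43, Snora20, Snora36b and Snord96a, with Snora75 (-0.43 ± 0.29) and Snora62 (-0.43 ± 0.32) the lowest (SE). Without LF/HF mouse 2 the median was 0.13 over all members, 0.17 over C/D box RNAs and 0.05 over H/ACA box RNAs.

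The criterion of the study, an unadjusted P below 0.05 with an absolute fold change above 1.2, was met by 10 members at 28 weeks, all of them C/D box RNAs and all higher in HF/HF offspring. That is 17.9% of the members, beside 2.15% of all probe sets in either direction and 0.961% in the higher direction. As the family was chosen from this contrast, nothing is read from that share. Snord104, the C/D box probe set of highest intensity, stood at 0.03 ± 0.29 (SE). No probe set of the array passed an adjusted p of 0.05 (limma, Benjamini-Hochberg), and 1083 of them (5.13%) had an unadjusted P below 0.05, 11 members included. The groups overlapped in all 56 members, and as the share of all probe sets that overlap was not counted, nothing is read from this.

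Snord57, a guide of ribose methylation that lies in Nop56, had the largest difference. Its log2 intensity was lowest 8.40, median 9.03 and highest 9.63 in HF/HF offspring, against lowest 5.44, median 8.21 and highest 9.20 in LF/HF offspring at 28 weeks. The LF/HF mean was passed by all 9 HF/HF mice, and the highest LF/HF mouse by 2 of them. The log2 fold change was 0.91 ± 0.38 (SE), a fold of 1.88, and was 0.58 without LF/HF mouse 2, the mouse at 5.44, at which the criterion was no longer met. Nop56 itself had a log2 fold change of -0.11.

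Snord22, which lies in the noncoding host Snhg1, was at lowest 8.0, median 8.49 and highest 8.96 in HF/HF offspring, against lowest 6.41, median 7.96 and highest 8.69 in LF/HF offspring. Its log2 fold change was 0.69 ± 0.26 (SE), and 0.52 without LF/HF mouse 2. Snord16a, in Rpl4, was at lowest 9.40, median 9.79 and highest 9.94 in HF/HF offspring, against lowest 8.47, median 9.30 and highest 9.97 in LF/HF offspring, with a log2 fold change of 0.55 ± 0.23 (SE). Here the highest single value belonged to an LF/HF mouse, and 6 LF/HF mice lay below the lowest HF/HF mouse.

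Snord42a, in Rpl23a, was at lowest 8.94, median 9.15 and highest 9.30 in HF/HF offspring, against lowest 7.47, median 8.80 and highest 9.31 in LF/HF offspring, and 7 LF/HF mice lay below the lowest HF/HF mouse. Its log2 fold change was 0.54 ± 0.22 (SE). Without LF/HF mouse 2 the log2 fold changes of Snord16a and Snord42a were 0.46 and 0.40, and neither met the criterion. Snord42b, the other C/D box RNA of Rpl23a, did not meet it either, at 0.34 ± 0.24 (SE).

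Snord87, which lies where Mcmdc2 and the noncoding host Snhg6 overlap, was at lowest 7.35, median 7.71 and highest 8.51 in HF/HF offspring, against lowest 6.49, median 7.39 and highest 7.91 in LF/HF offspring. The log2 fold change was 0.53 ± 0.19 (SE), and 3 HF/HF mice lay above the highest LF/HF mouse. Snord95, in Rack1, was at lowest 2.70, median 3.41 and highest 4.0 in HF/HF offspring, against lowest 2.14, median 2.77 and highest 4.14 in LF/HF offspring, with a log2 fold change of 0.50 ± 0.21 (SE). It sits close to the median probe set, and the criterion was missed without HF/HF mouse 2 (0.43), HF/HF mouse 5 (0.44), LF/HF mouse 7 (0.42) or LF/HF mouse 9 (0.41). The remaining 4 of the 10, named to complete the count, were Snord61 (log2 fold change 0.46), Snord73a (0.42), Snord32a (0.41) and Snord33 (0.32).

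Some RNAs of Rpl13a, though not all of them, are known from work in hamster cells as mediators of the response to lipid overload. In all, 4 of the members lie in that gene. Snord32a and Snord33 met the criterion, with means of 10.2 ± 0.21 and 9.66 ± 0.18 in HF/HF offspring and of 9.84 ± 0.54 and 9.34 ± 0.32 in LF/HF offspring (SD, n = 9 each). Snord34 and Snord35a had log2 fold changes of 0.24 ± 0.24 and 0.21 ± 0.19 (SE) and did not meet it. The Rpl13a transcript had a log2 fold change of -0.07. All 4 RNAs were thus above 0. As the family was chosen from this contrast, they are not compared with their host.

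**Figure D1:**
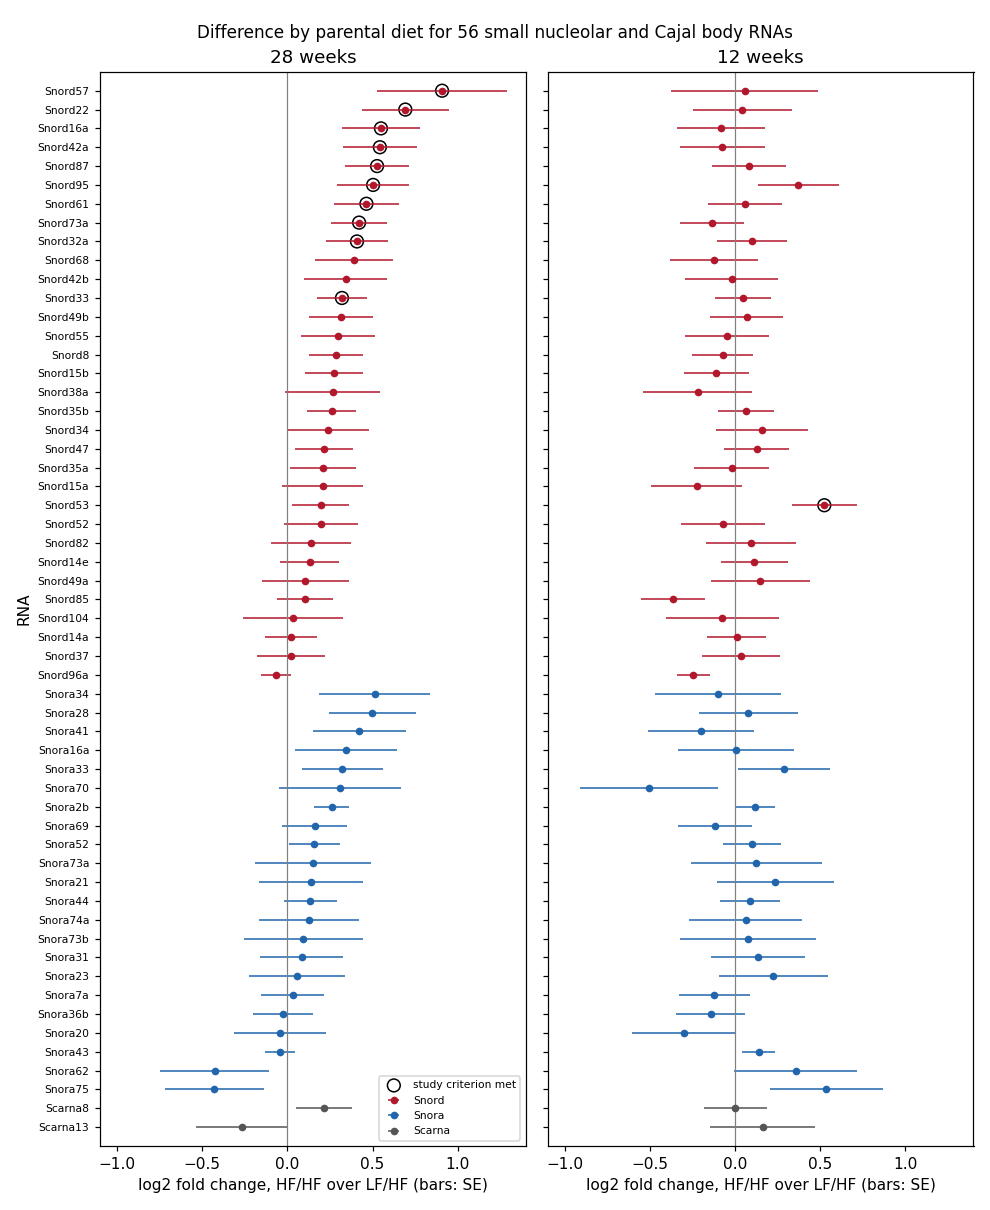
log2 fold change of HF/HF over LF/HF offspring for each of the 56 RNAs (rows, coloured by class) at 28 weeks (left) and 12 weeks (right), with bars of 1 SE and open rings where the study criterion was met. At 28 weeks 49 RNAs lie right of 0 and 10 carry a ring, and at 12 weeks 34 lie right of 0 and 1 carries a ring.

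The count at 28 weeks leaned on a few LF/HF mice. It was 5 without LF/HF mouse 2 (44 of 56 above 0), 6 without LF/HF mouse 9, and 12 without the 3 mice with muscle markers. Array names carry 1 of 2 codes, taken here as plates although their meaning is not stated, and each code covers 3 to 5 mice of every group. The count was 10 with plate as a block, 2 on plate 1 alone (1 in each direction) and 11 on plate 2 alone. The log2 fold change was above 0 for 37 members on plate 1 and for 50 on plate 2. Snord57 had a log2 fold change of 1.11 on plate 1 and 0.60 on plate 2, and Snord22 one of 0.82 and 0.54. Plates were not tied to single mice, so plate values and values without a mouse are not separate checks.

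At 12 weeks the same parental diets were compared in younger mice, and the members showed no common direction. The log2 fold change was above 0 for 34 of 56 members, against 50.2% of all probe sets, and the median was 0.05. The direction differed between plates, with 44 members above 0 on plate 1 (median 0.19) and 17 on plate 2 (median -0.11), and only 19 were above 0 without the 3 mice with muscle markers (median -0.10). A single member met the criterion (1.79%, beside 2.92% of all probe sets), so the share did not exceed the background. At an unadjusted P below 0.05 it was 2 members, beside 4.73% of all probe sets. The member past the criterion was Snord53, in Wdr43, a gene of ribosome production, at lowest 2.82, median 3.08 and highest 3.99 in HF/HF offspring, against lowest 2.20, median 2.65 and highest 3.35 in LF/HF offspring. Its log2 fold change was 0.52 ± 0.19 (SE) with an adjusted p of 0.999 (limma), at a mean intensity (2.91) below the median probe set. The groups overlapped, and the value on plate 1 (0.54) was near that on plate 2 (0.46).

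Snord57, Snord22 and Snord16a had log2 fold changes of 0.06 ± 0.43, 0.04 ± 0.29 and -0.08 ± 0.26 (SE) at 12 weeks. None of these is larger than its SE. The count at 12 weeks was 4 without HF/HF mouse 4, 3 without LF/HF mouse 1 and 2 without any 1 of HF/HF mouse 1, HF/HF mouse 6 and LF/HF mice 2, 4 and 7. Without the 3 mice with muscle markers it was 3.

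**Figure D2:**
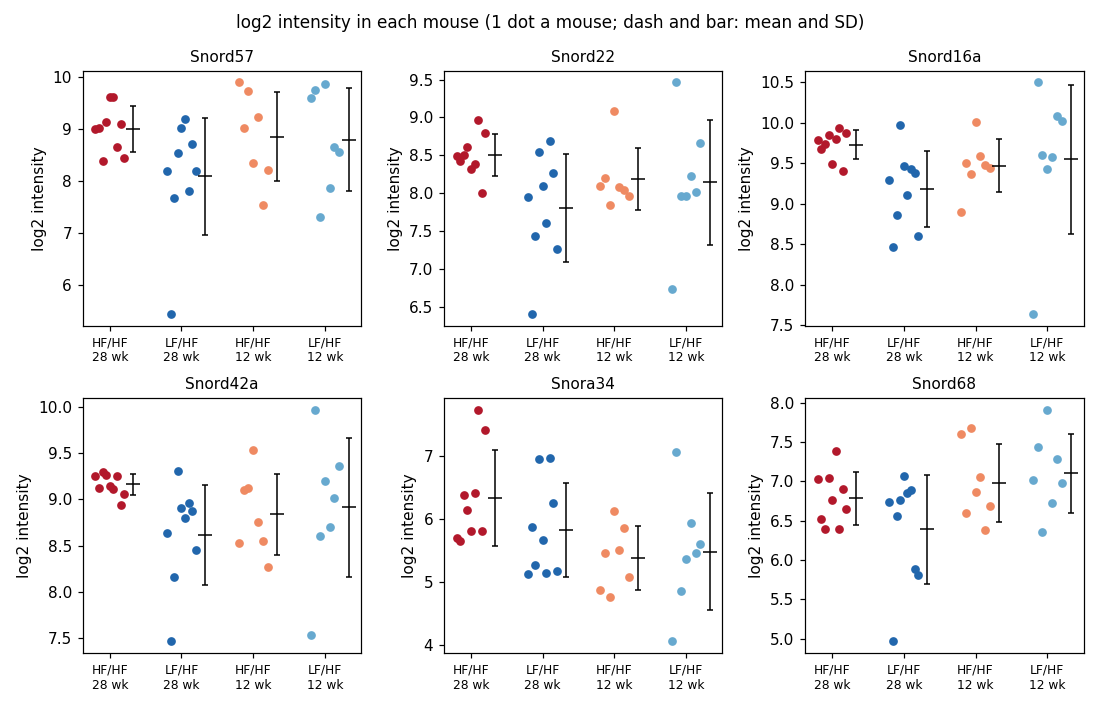
log2 intensity in each mouse (dots, numbered order within a group from left to right) for Snord57, Snord22, Snord16a, Snord42a, Snora34 and Snord68, with the mean and SD of each group beside the dots. In Snord57 the HF/HF mice at 28 weeks lie between 8.40 and 9.63 and the LF/HF mice reach down to 5.44.

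The difference between the diet effects, 28 weeks minus 12 weeks, shares its mice with the contrasts above and is described only. It was above 0 for 46 of 56 members (all probe sets 49.2%), with a median of 0.20, and 2 members met the criterion (3.57%, beside 4.19% of all probe sets). Snord73a, which lies in Rps3a1, had a difference of 0.56 ± 0.25 (SE), made up of 0.42 at 28 weeks and -0.14 at 12 weeks. Snora75, which lies in Ncl, the gene of the nucleolar protein nucleolin, had a difference of -0.97 ± 0.44 (SE), made up of -0.43 at 28 weeks and 0.54 at 12 weeks. Its intensity was low, with a median of 2.45 in HF/HF mice and 2.82 in LF/HF offspring at 28 weeks, and of 2.86 in HF/HF mice and 2.07 in LF/HF offspring at 12 weeks. On plate 1 alone the difference of Snora75 was -0.22, on plate 2 alone -1.74. The median over the members was likewise 0.003 on plate 1 and 0.41 on plate 2, with 28 and 46 of 56 above 0. With 1 mouse left out the count ranged from 0 (without any 1 of HF/HF mice 3 and 5 and LF/HF mice 3 and 7 at 12 weeks, or LF/HF mouse 9 at 28 weeks) to 7 (without LF/HF mouse 1 at 12 weeks). It was 4 or 5 without HF/HF mouse 4 or 6 at 12 weeks or LF/HF mouse 4 or 7 at 28 weeks, and 1 without HF/HF mouse 1 or 7 or LF/HF mouse 5 at 12 weeks, or HF/HF mouse 6 or 9 or LF/HF mouse 3 at 28 weeks. Without the 3 mice with muscle markers it was 8.

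Age was compared by averaging the change from both diet groups, a contrast that would be uncorrelated with the diet contrast at 28 weeks if both groups had equal variance. As the SD of most members was smaller in HF/HF offspring (given below), the age tests are not fully free of the values from which the family was chosen. At 28 weeks, compared with 12 weeks, 28 members were higher and 28 lower (all probe sets 53% higher). By class, 18 of 22 Snora RNAs lay higher (median 0.10) and 24 of 32 Snord RNAs lay lower (median -0.05), a contrast between classes that was not tested. Both medians changed sign with a subset of mice, the Snora median on plate 1 alone (-0.04) and the Snord median on plate 2 alone (0.02). Unadjusted, 4 members met the criterion (7.14%, beside 4.05% of all probe sets), and 5 had an unadjusted P below 0.05 (13.7% of all probe sets). None passed an adjusted p of 0.05, where 379 probe sets did (1.79%). The smallest adjusted p of a member was 0.162 (limma). The count was 2 without the 3 mice with muscle markers and 1 on plate 1 alone.

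Snora34, an H/ACA box RNA in Kansl2, was at lowest 5.65, median 6.13 and highest 7.73 in HF/HF mice and at lowest 5.12, median 5.66 and highest 6.97 in LF/HF offspring at 28 weeks. At 12 weeks it was at lowest 4.75, median 5.45 and highest 6.13 in HF/HF mice and at lowest 4.05, median 5.45 and highest 7.06 in LF/HF offspring. The averaged age difference was 0.65 ± 0.25 (SE; adjusted p = 0.195, limma), made up of 0.96 in HF/HF mice and 0.35 in LF/HF offspring. The groups overlapped at both diets, and without the 3 mice with muscle markers the difference was 0.45 and no longer met the criterion.

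Scarna8, in Haus6, had medians of 2.64 in HF/HF mice and 2.62 in LF/HF offspring at 28 weeks, and of 2.22 in HF/HF mice and 2.35 in LF/HF offspring at 12 weeks. Its age difference was 0.35 ± 0.12 (SE; adjusted p = 0.162, limma) at an intensity below the median probe set, and was 0.17 on plate 1 and 0.52 on plate 2. Snora73b, in Snhg3, had an age difference of 0.55 ± 0.27 (SE; adjusted p = 0.357, limma), and its call was lost in 18 of the 32 fits that left out 1 mouse, among them the one without LF/HF mouse 1 at 12 weeks (0.39). Snora73a and Snora73b are closely related copies of the RNA U17, so their probes may share signal, and Snora73a had a difference of 0.45 ± 0.26 (SE).

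Snord68, a C/D box RNA in Rpl13, had the lowest age difference of the members. It was at lowest 6.39, median 6.76 and highest 7.39 in HF/HF mice and at lowest 4.97, median 6.74 and highest 7.07 in LF/HF offspring at 28 weeks, and at lowest 6.38, median 6.87 and highest 7.67 in HF/HF mice and at lowest 6.35, median 7.02 and highest 7.91 in LF/HF offspring at 12 weeks. The age difference was -0.45 ± 0.17 (SE; adjusted p = 0.203, limma), made up of -0.19 in HF/HF mice and -0.71 in LF/HF offspring. In no fit that left out 1 mouse was this call lost.

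Within one diet group, 5 members met the criterion for age in HF/HF offspring (8.93%, beside 4.1% of all probe sets). Higher at 28 weeks were Snora34, Snora70 (0.79), Snord73a (0.47) and Scarna8 (0.45), and lower was Snora43 (-0.26). Leaving out 1 mouse at a time, the call of Snora70 was lost in 11 of 16 fits (0.58 to 1.04; lost without mouse 1, 2, 3, 5 or 7 at 12 weeks or mouse 2, 3, 4, 5, 7 or 9 at 28 weeks). That of Snora43 was lost in 7 of 16 (-0.29 to -0.21; lost without mouse 1, 4 or 5 at 12 weeks or mouse 2, 5, 6 or 9 at 28 weeks). On plate 1 alone Scarna8 was at -0.013, and on plate 2 alone at 0.91. In LF/HF offspring 1 member, Snord68, met it (1.79%, beside 7.22%). That count was 8 without LF/HF mouse 1 at 12 weeks, 6 without LF/HF mouse 2 at 12 weeks, 3 without LF/HF mouse 5 at 12 weeks or LF/HF mouse 2, 6 or 7 at 28 weeks, 2 without LF/HF mouse 3 or 4 at 12 weeks or LF/HF mouse 4 at 28 weeks, and 10 without the 3 mice with muscle markers. The HF/HF count was 3 without any 1 of mice 1 and 5 at 12 weeks and mice 2 and 9 at 28 weeks. These contrasts share mice with the diet contrast at 28 weeks.

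Many members varied together from mouse to mouse. Averaged over the 56 RNAs, LF/HF mouse 2 at 28 weeks (5.67) and LF/HF mouse 1 at 12 weeks (5.74) were the lowest of all 32 mice, and LF/HF mouse 2 at 12 weeks (7.19) was the highest. The first was the lowest of its group in 31 members, and the last was the highest of its group in 40. Both extremes thus came from LF/HF offspring at each age. The Snord mean was 7.13 ± 0.13 in HF/HF offspring and 6.83 ± 0.37 in LF/HF offspring at 28 weeks (SD, n = 9 each), and 7.04 ± 0.21 in HF/HF offspring and 7.04 ± 0.42 in LF/HF offspring at 12 weeks (SD, n = 7 each).

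The spread among mice was also smaller in HF/HF offspring for most members, a pattern noticed after the values were seen and not tested. The SD was smaller in HF/HF than in LF/HF offspring for 43 of 56 members at 28 weeks (76.8%, beside 52.5% of all probe sets) and for 45 of 56 at 12 weeks (80.4%, beside 46%). The median SD of a member was 0.33 in HF/HF mice and 0.53 in LF/HF offspring at 28 weeks, and 0.42 in HF/HF mice and 0.62 in LF/HF offspring at 12 weeks. Without LF/HF mouse 2 at 28 weeks the count there was again 43, with a median SD of 0.44 in LF/HF offspring. No mouse was left out at 12 weeks. There LF/HF mouse 1, which carries muscle markers, was the lowest of its group in 26 members, and LF/HF mouse 2 the highest in 40. How far the 12-week count rests on these mice was not tested. As members move together, these counts are not independent observations.

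**Figure D3:**
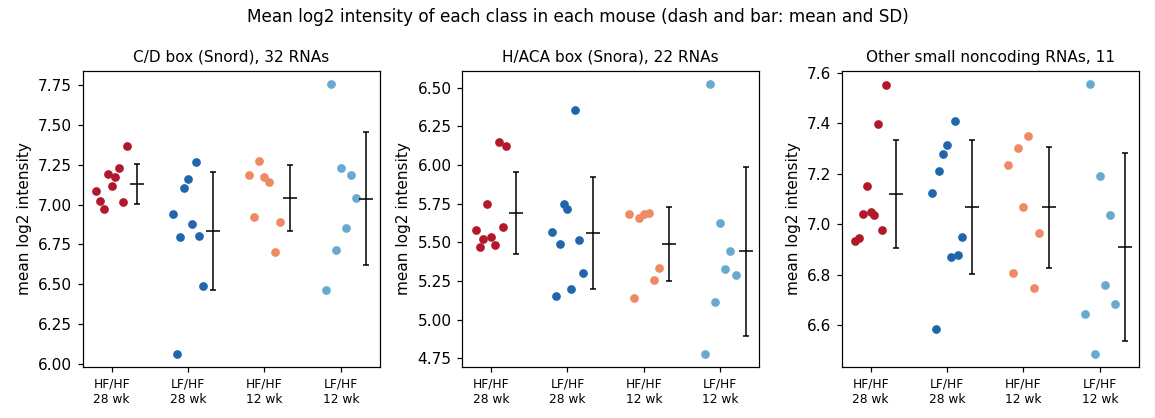
Mean log2 intensity in each mouse (dots) over the 32 Snord RNAs, the 22 Snora RNAs and 11 other small noncoding RNAs, by group, with the mean and SD of each group. The lowest Snord mean (6.06) is that of an LF/HF mouse at 28 weeks and the highest (7.76) that of an LF/HF mouse at 12 weeks.

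Deviations from the group means were next correlated across the 32 mice. Over all 1540 pairs of members the median Pearson's r was 0.38, and 1346 pairs were positive. The 496 Snord pairs had a median of 0.41, the 231 Snora pairs one of 0.43 and the 704 mixed pairs one of 0.38. Snora70, Snora20 and Snora16a stood apart, with median r to the other members of -0.05, 0.04 and 0.05.

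For RNAs of the same host gene, 15 pairs were tested, with a median r of 0.63, and 12, of which 11 were positive, had an adjusted p below 0.05 for both Pearson's r and Spearman's rho (permutation test within groups, 100000 resamples, two-sided, Benjamini-Hochberg over the 15 pairs). Snora73a and Snora73b in Snhg3 had r = 0.98 and rho = 0.97, and both p were 1e-05, the smallest these permutations can give. Snord42a and Snord42b in Rpl23a had r = 0.95 and rho = 0.90, and Snord49a and Snord49b in 2410006H16Rik had r = 0.89 and rho = 0.83, each at that smallest p. Probes of Snora73a and Snora73b may share signal, as given above, and whether those of other pairs do was not tested. The 6 pairs within Rpl13a ranged from r = 0.58 (Snord32a with Snord33) to r = 0.90 (Snord34 with Snord35a), and all 6 passed.

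Snord95 with Snord96a (Rack1), Snora2b with Snora34 (Kansl2) and Snord15a with Snord15b (Rps3) had r of -0.02, -0.08 and 0.43 and did not pass both tests. Of the 15 same-host pairs 6 come from Rpl13a alone. The 1525 pairs of different hosts had a median r of 0.38 and 1334 were positive, and the difference between the kinds of pair was not tested. Some pairs of different hosts were as close, such as Snord34 with Snord82 (Rpl13a and Ncl, r = 0.97) and Snord32a with Snord57 (Rpl13a and Nop56, r = 0.93).

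The RNAs were also set against their own host transcripts, in 33 pairs. The median r was 0.20, and 8 pairs passed both adjusted tests, all positive on both plates. No RNA was set against the hosts of other RNAs, and the member mean moved with the host mean (r = 0.50, below). A pass is therefore not read as a link to the RNA's own host in particular. The closest was Snord47 with Gas5, a noncoding host known for growth arrest, at r = 0.92 and rho = 0.87 (permutation p = 1e-05 for both, adjusted p = 0.00033), with r = 0.90 when the 2 most distant mice were left out. Snord34 and Snord35a with Rpl13a each had r = 0.64 (adjusted permutation p = 0.00145 for both), with r of 0.65 and 0.67 on plate 1 and of 0.66 and 0.58 on plate 2.

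Among the other pairs with a host, Snora52 with Rplp2 and Snord82 with Ncl each had r = 0.60, Snord15b with Rps3 had r = 0.59, Snord15a with Rps3 had r = 0.51, and Snord33 with Rpl13a had r = 0.44. Of the 3 RNAs that led the 28-week diet contrast, the hosts of Snord57 and Snord16a were on the array, and neither pair passed. Snord57 with Nop56 had r = -0.39 and rho = -0.25 (adjusted permutation p = 0.135 and 0.329), and Snord16a with Rpl4 had r = 0.02 and rho = -0.09 (adjusted permutation p = 0.956 and 0.780).

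**Figure D4:**
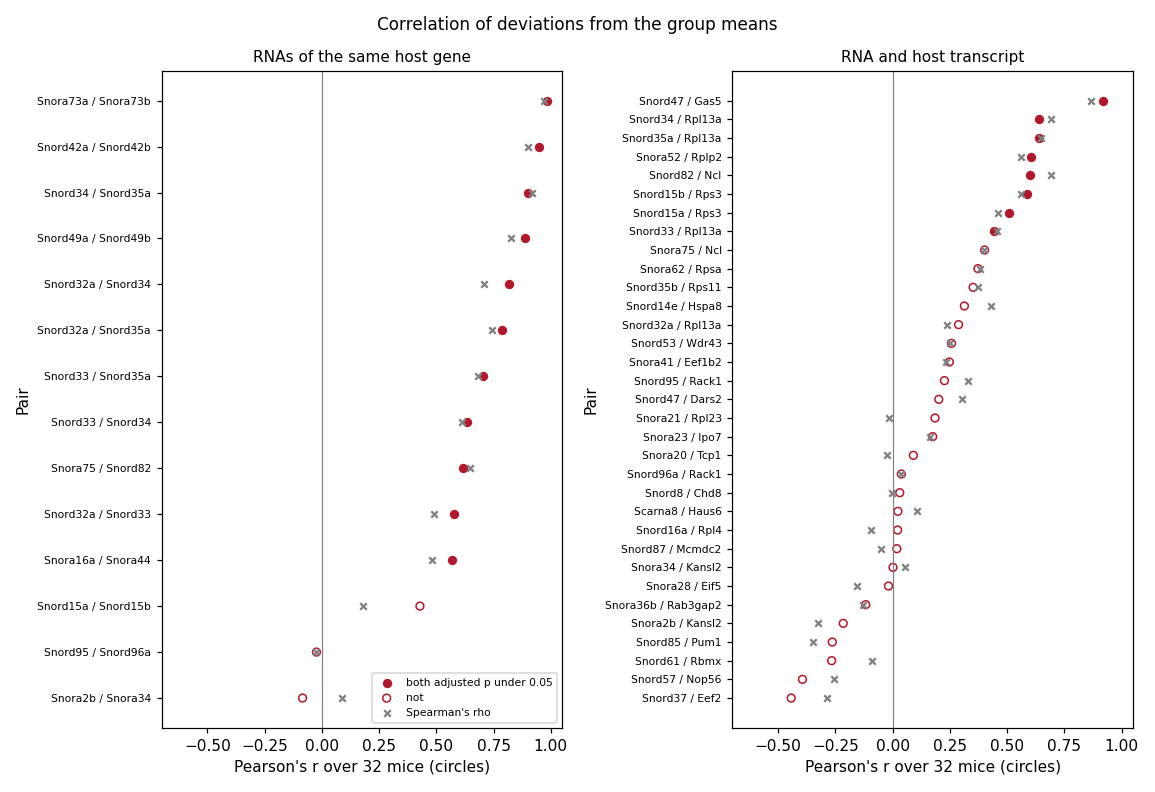
Pearson's r (circles, filled where both adjusted p were below 0.05) and Spearman's rho (crosses) of deviations from the group means over 32 mice, for 14 of the 15 pairs of RNAs in the same host gene (left) and 33 pairs of an RNA with its host transcript (right). Most pairs on the left lie above 0.5, whereas on the right Snord47 with Gas5 stands alone at 0.92 and 8 pairs are filled.

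Of the 26 host genes on the array, 8 had a log2 fold change above 0 at 28 weeks by parental diet, beside 48.6% of all probe sets. The median over these hosts was -0.04. The criterion was met by 1 of the hosts (Kansl2, 0.41), beside 2.15% of all probe sets. Only 32 members have a host on the array. As the family was chosen from this contrast, hosts are not compared with their RNAs. Among the proteins that hold C/D box RNAs, Fbl, the methyltransferase, had a log2 fold change of 0.14, Nop56 of -0.11 and Nop58 of -0.26. None of the 3 met the criterion for diet at either age or for the averaged age contrast, and Snu13 was not matched under its present or its older name.

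Among the proteins of H/ACA box RNAs, Dkc1, the pseudouridine synthase, had a log2 fold change of 0.09 at 28 weeks, Gar1 of -0.04, Nhp2 of -0.18 and Nop10 of -0.11. None met the criterion for diet, and Dkc1 met it for age within HF/HF offspring. Of 10 assembly factors, 8 proteins of the Cajal body and nucleolus and 14 factors of RNA trimming and turnover, 2 met the criterion at 28 weeks, beside 2.15% of all probe sets. They were Rpap3 (-0.30), a subunit of the chaperone complex that builds these particles, and Rbm7 (-0.30), part of the nuclear exosome targeting complex. None of these 32 met it for diet at 12 weeks, beside 2.92% of all probe sets. Lists this short cannot tell such counts from these shares, so nothing is read from them.

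The mean over the members moved with other small RNAs across mice. Over 12 relations tested, the mean over 11 small noncoding RNAs that are no snoRNAs, such as Rmrp, Rn7sk, the Y RNAs and Terc, which carries an H/ACA domain, had r = 0.92 and rho = 0.91 with the member mean (permutation p = 1e-05 for both, adjusted p = 6e-05 and 0.00012). The value was r = 0.89 without the 2 most distant mice, 0.94 on plate 1 and 0.90 on plate 2. The mean over 302 microRNA genes had r = 0.79 and rho = 0.77 (adjusted permutation p = 6e-05 and 0.00012), and r = 0.65 without the 2 most distant mice. The mean over the host genes had r = 0.50 and rho = 0.59 (adjusted permutation p = 0.0103 and 0.00288).

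A pair of relations passed in the negative direction, assembly factors with r = -0.53 and rho = -0.55 (adjusted permutation p = 0.00116 and 0.00288) and hepatocyte markers with r = -0.57 and rho = -0.59 (adjusted permutation p = 0.0117 and 0.00434). On plates 1 and 2 these r were -0.39 and -0.75 for assembly factors, and -0.71 and -0.38 for hepatocyte markers. These relations and the plate values were chosen after the data were seen. The core proteins of both classes, Cajal body proteins, turnover factors and markers of Kupffer cells, stellate cells and lymphocytes did not pass. By group, the 11 small RNAs averaged 7.12 ± 0.21 in HF/HF mice and 7.07 ± 0.27 in LF/HF offspring at 28 weeks (SD, n = 9 each), and 8 of 11 were higher in HF/HF offspring with a median log2 fold change of 0.07. RNA was purified on silica columns that favour longer molecules, and the part of this step in the shared variation was not tested.

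**Figure D5:**
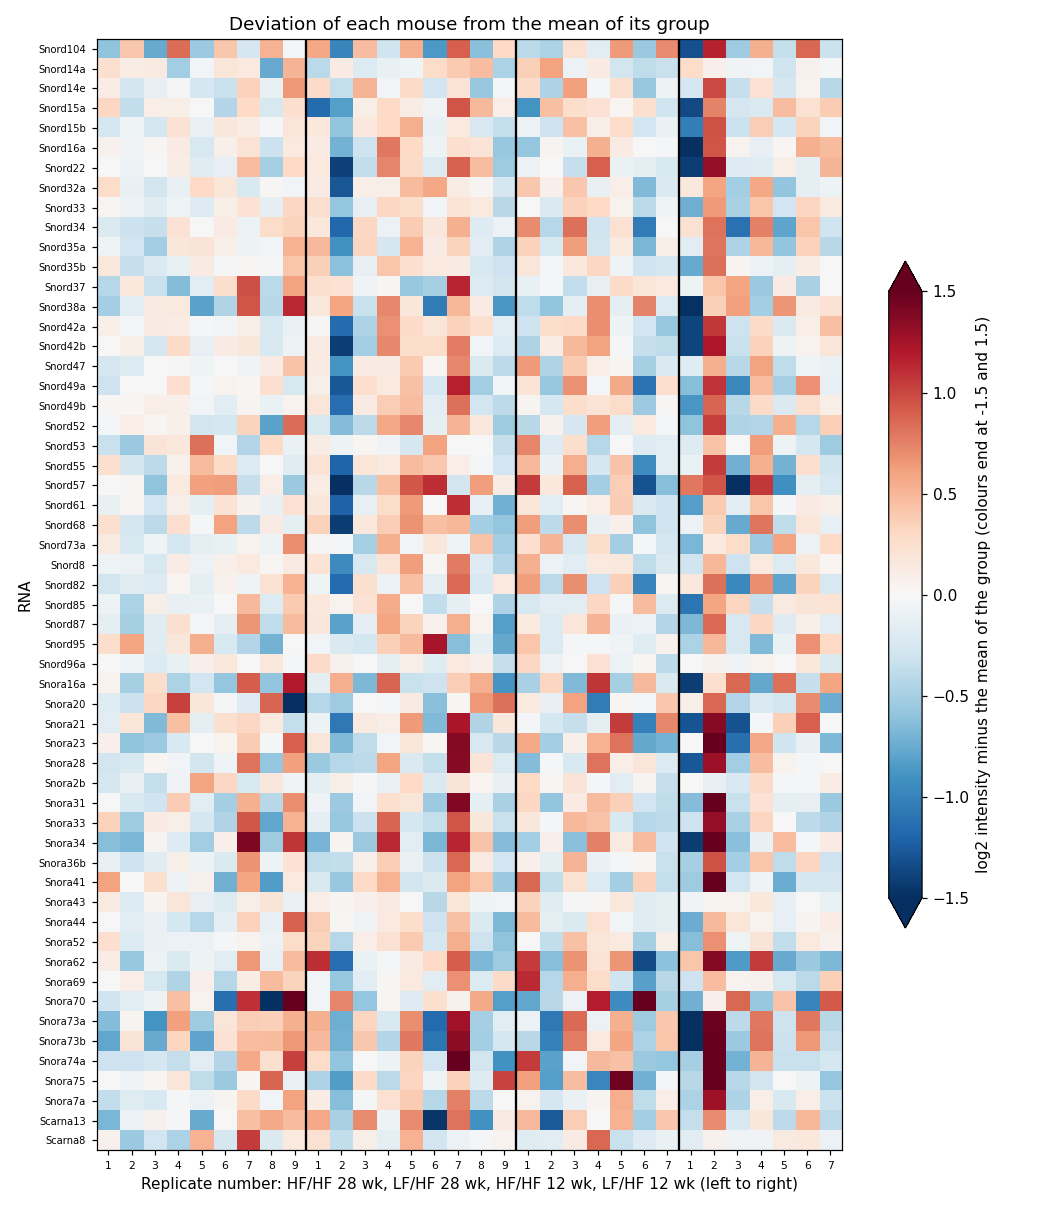
Deviation of log2 intensity from the group mean for each RNA (rows, by class and name) in each mouse (columns, groups parted by black lines), in red above and blue below the mean. LF/HF mouse 2 at 28 weeks is blue in most rows and LF/HF mouse 2 at 12 weeks red in most rows.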

How the data were processed

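Liver RNA of 32 mice was hybridized to Affymetrix Mouse Gene ST arrays. The authors deposited RMA intensities on a linear scale, in a table with gene names and a series table with sample names. The 2 agreed once the values of each probe set were sorted, a check that does not use the group labels. Here log2 intensity was fitted with limma 3.58.1 in R 4.3.3, with 1 mean per group, an intensity trend in the prior and Benjamini-Hochberg adjustment over 21115 probe sets. A member was called by an unadjusted P below 0.05 and an absolute fold change above 1.2. The methods call the test paired, but no pairs are given, so mice were compared as independent. Members and gene lists were chosen with earlier results of these data known. Named members were up to 6 of smallest P or largest fold past the criterion in each contrast and direction, with the highest and most variable members. Plates came from column names of the deposited table, which give a group but no single mouse, and values were not matched to find the mouse. Correlations used deviations from group means and 100000 permutations. Alternatives were tried for the prior, normalization, filter, weights, blocks, plates, thresholds and each mouse. The fit was tested on simulated data. The number of arrays limits the precision. One host gene and the results that need it are not reported here.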

Additional observations from a re-analysis of the deposited data

Results flagged for a closer look

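A mouse far from the others of its group appeared in 11 of 104 sets of values tested, and 1 in 20 of these sets is about 5.2. Most sets were named members, some chosen for a large spread or difference on these same arrays. The value 5.2 is therefore no expectation by chance, and values of the same mice are not independent. In LF/HF offspring at 28 weeks, mouse 2 was lowest in Snord57 (5.44), Snord32a (8.56) and Snord55 (8.66), mouse 6 was lowest in Snora43 (3.15) and highest in Snord53 (3.34), and mouse 7 was highest in the Snora mean (6.36). In HF/HF offspring at 28 weeks, mouse 9 was highest in Snord73a (5.63). In HF/HF offspring at 12 weeks, mouse 4 was highest in Scarna8 (3.26) and Snord22 (9.09). In LF/HF offspring at 12 weeks, mouse 2 was highest in Snora75 (4.10) and mouse 1, which carries muscle markers, was lowest in Snord16a (7.64).

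The difference of the diet effects between ages was -0.97 on the log2 scale for Snora75 and 0.56 for Snord73a, which met the study criterion, as did 3.57% of the members beside 4.19% of all probe sets. This is a description, since the values share mice with the contrast from which the family was chosen. Each of the 2 calls was lost in 9 of the 32 fits that left out 1 mouse.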

How the results depend on the processing

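The diet count at 28 weeks (10) was 2 on plate 1 alone, 2 at a fold of 1.5 and 0 by adjusted p, and ranged from 5 to 13 with 1 mouse left out. The 12-week count (1) was 0 with probe sets below the median left out, 2 with array weights, 2 on plate 1, 5 on plate 2, 0 at a fold of 1.5, 0 by adjusted p, 3 without the 3 mice with muscle markers, and 1 to 4 with 1 mouse left out. The count for the difference of diet effects (2) was 1 with the replicate block, 1 with the filter, 0 on plate 1, 14 on plate 2, 1 at a fold of 1.5, 0 by adjusted p, 8 without the 3 mice, and 0 to 7 with 1 mouse left out. The averaged age count (4) was 1 on plate 1, 1 at a fold of 1.5, 0 by adjusted p, 2 without the 3 mice and 3 to 6 with 1 mouse left out. In HF/HF offspring the age count (5) was 3 with the replicate block, 3 with array weights, 3 with plate as a block, 2 on plate 1, 8 on plate 2, 2 at a fold of 1.5, 0 by adjusted p and 3 to 6 with 1 mouse left out. In LF/HF offspring (1) it was 3 with array weights, 0 on plate 1, 6 on plate 2, 0 by adjusted p, 10 without the 3 mice and 1 to 8 with 1 mouse left out. For counts in changed settings, here and above, the share of all probe sets called in the same setting is not given. They show how far a count moves and are not read as results about the members. The Scarna median, over 2 RNAs, was -0.45 on plate 1 and 0.39 on plate 2 for diet at 28 weeks, and -0.57 and 0.35 for the difference of diet effects. Scarna8 changed sign for age in HF/HF offspring, at -0.013 on plate 1. The cause was not tested. Same-numbered mice of the 2 diets had a median correlation of -0.03 over 16 pairs (-0.16 to 0.10), within the range of differently numbered mice (-0.26 to 0.24). These values show no pairing by number, but a weak pairing need not appear in them. The replicate block gave 11 at 28 weeks. The setting without the 3 mice was chosen after seeing the data. Where adjusted p (limma) gave 0, members with an unadjusted P below 0.05 numbered 11 and 2 for diet at 28 and 12 weeks, 2 for the difference of diet effects, 5 for averaged age, and 6 and 1 for age in HF/HF and LF/HF offspring.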

Other observations

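One further row of the table, named Rnu73b there and Snord73b in RefSeq, was outside the naming rule. Its log2 fold change by parental diet was 0.46 at 28 weeks and -0.10 at 12 weeks, and it did not meet the study criterion at either age. Among other small RNAs left out of the rule, Rnu3a, the C/D box RNA that directs early cuts of the ribosomal RNA precursor, was higher at 28 weeks than at 12 weeks by 0.41 in the averaged contrast and met the criterion there.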
